A study of Mus musculus with 12 samples.

Results

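The axon guidance ligands and receptors described here are 69 of the 19702 genes in the count table of a mouse cornea RNA sequencing study. They were chosen by symbol alone and comprise 20 semaphorins, 9 plexins, 2 neuropilins, 8 ephrins, 14 Eph receptors, 3 Slits, 4 Robos, 4 netrins, 4 Unc5 receptors and Dcc. Of these, 68 passed the filter on low counts; the exception, the netrin gene Ntn5, lay between 0.154 and 0.64 counts per 1 M counts (CPM) in the 12 libraries and was not tested. No member had a count of 0 in any library.

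There were 4 groups of 3 libraries. UCPRP corneas and UCS corneas were injured with BAK (benzalkonium chloride) and given 1 of a pair of biologics, which the series title says come from cord blood. Vehicle corneas were injured with BAK and are labelled as untreated, and Control corneas had neither injury nor treatment. BAK was dropped on the eyes each day over 14 days (0.2%, 5 µl per eye), and UCS or UCPRP was dropped 3 times a day over 10 days (20%, 5 µl). Each library was made from 6 corneas of 3 mice, so a replicate is a pool. The sources used here do not give the time of harvest, the strain and age of the mice, whether treatment overlapped with BAK, or whether Vehicle corneas received drops after it. Because these are whole corneas, in which markers of other tissues were also found, several readings cannot be told apart in any result. These are fewer cells of a type, less RNA per cell and a different share of other tissue.

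Growing axons read guidance cues through receptors on the growth cone, which turn the cue into attraction or repulsion by way of the actin cytoskeleton. Semaphorins act mainly through plexins, with neuropilins as co-receptors for the secreted class; ephrins and Eph receptors are both membrane bound and can signal into either cell; Slits act through Robos; netrins act through Dcc and the Unc5 receptors. The cornea is densely supplied by sensory axons of the trigeminal ganglion, whose cell bodies, and most of whose mRNA, lie outside the cornea. The same families also pattern blood vessels and regulate epithelial contacts and immune cells, so their transcripts in a whole cornea come from many cell types.

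The libraries held 18.554 M to 20.444 M estimated counts, and a count of 3 corresponded to 0.147 to 0.162 CPM. The labelled tissue was checked first. Pax6 was between 380.6 and 704.8 CPM in the 12 libraries, at 380.6 to 445.3 CPM in Vehicle corneas and 622.3 to 704.8 CPM in Control corneas. Krt12, the keratin of corneal epithelium, was between 7.18 and 23.9 CPM in Vehicle corneas, against 15901.9 to 32870.0 CPM in Control corneas. Markers of retina were also present: their summed level ran from 2661.9 CPM in Vehicle replicate 1 to 15284.8 CPM in UCPRP replicate 3. The 7 lens markers summed to between 26.3 CPM in UCS replicate 1 and 20388.5 CPM in UCPRP replicate 3. Markers of melanocytes and iris summed to 2969.1 CPM in Vehicle replicate 2 to 5543.8 CPM in Control replicate 2. Skeletal muscle markers summed to 25.6 CPM in UCPRP replicate 3 to 1335.3 CPM in Vehicle replicate 3. The part of lens, iris and muscle in the results was not tested. The libraries also fell into 2 circadian phases, with the clock output gene Dbp at 14.66 to 25.89 CPM in UCS replicate 1, Vehicle replicates 1 and 2 and Control replicate 3, and at 139.4 to 280.3 CPM in the other 8. The retina signal and the phase vary within groups, and member calls that changed with either are named below.

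Per kilobase of exon, the members spanned a wide range of mean levels, from 0.133 CPM per kb for Robo3 to 74.0 CPM per kb for Plxnb2, with a median of 3.07. Plxnb2, a receptor for class 4 semaphorins, Epha2 (35.4 CPM per kb), the secreted Sema3f (32.3), Plxnb1, the receptor for Sema4d (25.2), and Epha1 (22.8) held 41.0% of the summed level per kb of all members. Epha1 overlaps Zyx, which averaged 115.5 CPM, and the use of strand in counting is not known, so its level is uncertain. Above 10 CPM per kb there were 16 members, and below 1 CPM per kb there were also 16. The lowest were Robo3, Ntn5, Plxnb3, Dcc and Unc5d, at 0.133, 0.149, 0.156, 0.205 and 0.297 CPM per kb. Of these, Robo3, Dcc and Unc5d are receptors known chiefly from the central nervous system.

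**Figure D1:**
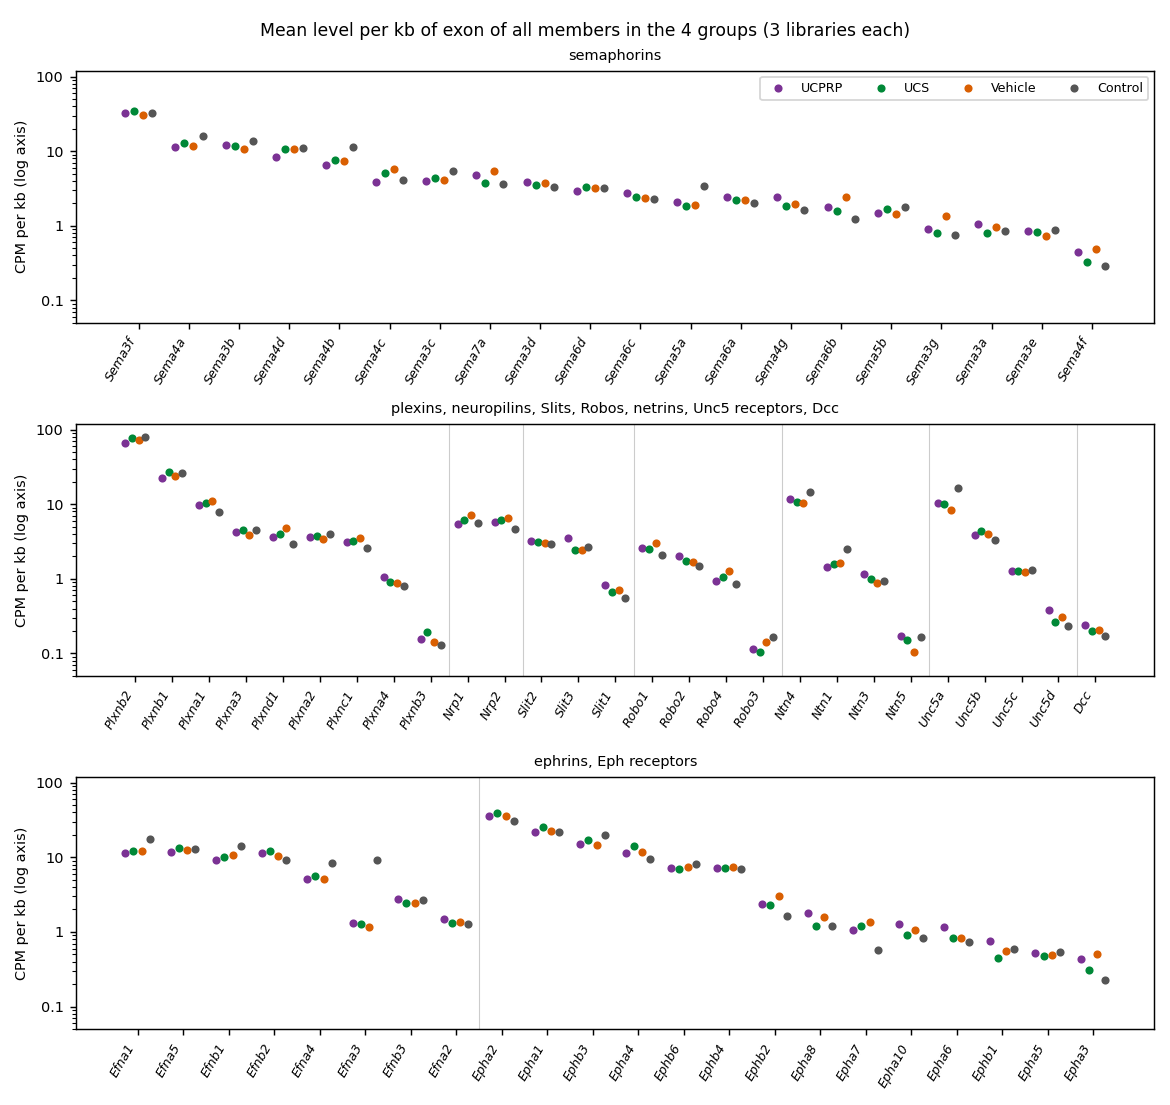
Mean level of all 69 members in CPM per kb of exon (vertical log axis), by gene and family; the 4 points per gene are the means of the UCPRP, UCS, Vehicle and Control groups, 3 libraries each. Plxnb2 stands highest with a mean of 74.0 CPM per kb over the 12 libraries, and for most genes the 4 group means lie close together beside the range between genes.

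Vehicle was set against Control to see how BAK injury changed these genes. With edgeR's quasi-likelihood test, 13 of the 68 tested members (19.1%) passed an adjusted p of 0.05, 7 higher and 6 lower in Vehicle, beside 16.5% of all 16124 genes tested (9.58% higher and 6.92% lower). The share among members was thus near that of all genes. The median log2 fold change of the members was 0.06, against -0.001 for all genes. By family, 2 of 8 ephrins fell and none rose, 2 of 14 Eph receptors rose and none fell, 2 of 9 plexins and 1 of 2 neuropilins rose, and 3 of 20 semaphorins fell while 1 rose. Among Slits and netrins no member passed the test in either direction (0 of 3 and 0 of 3 tested), and none was called by DESeq2. Of them, 0 and 2 had an unadjusted p under 0.05 by edgeR, as did 4609 of all 16124 genes.

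**Figure D2:**
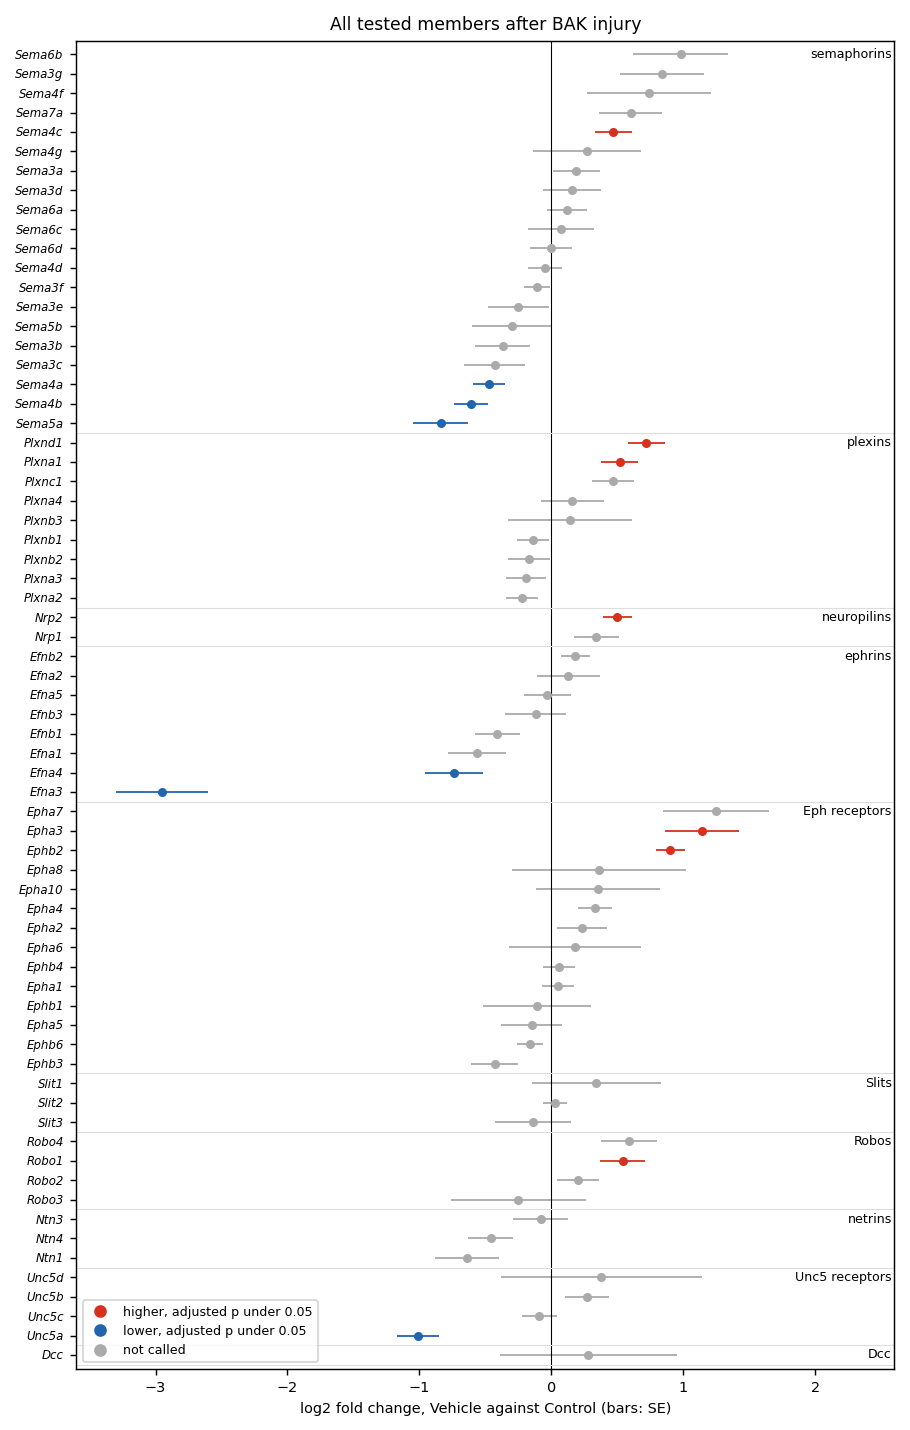
Log2 fold change of the 68 tested members in Vehicle against Control (horizontal axis), sorted within families; bars are standard errors, and colours mark members higher, lower or not called at an adjusted p of 0.05. Efna3 lies far to the left of all others at -2.95, and most members lie near 0.

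The largest change was in an ephrin. Efna3 encodes ephrin-A3, a ligand of EphA receptors held in the membrane by a lipid anchor. It had 1.81, 3.37 and 3.47 CPM in Vehicle replicates 1 to 3, against 27.3, 27.3 and 12.5 CPM in Control replicates 1 to 3. The groups did not overlap, and replicate 3 was the lowest of the Control libraries. Its mean of 2.88 ± 0.933 CPM in Vehicle was 0.129 of the 22.4 ± 8.57 CPM in Control (SD, n = 3 each), a log2 fold change of -2.95 (SE 0.35, adjusted p = 0.000266 by edgeR). The call held in all 19 alternative fits, with log2 fold changes from -3.24 to -2.66.

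Efna3 lies between 2 other ephrin-A genes on the minus strand of chromosome 3. In GRCm38.p6 coordinates, Efna1 spans 89271730 to 89280951, Efna3 spans 89313899 to 89322939 and Efna4 spans 89333393 to 89338028, so that all 3 fit within 66.3 kb that held no other gene of the count table. Efna4, which encodes another lipid-anchored ligand, had 6.92, 7.57 and 9.8 CPM in Vehicle replicates 1 to 3, against 14.1, 16.2 and 10.5 CPM in Control replicates 1 to 3. These ranges came close but did not overlap, and the log2 fold change was -0.74 (SE 0.22, adjusted p = 0.0374 by edgeR). Efna1 had 26.2, 22.2 and 17.7 CPM in Vehicle, against 31.8, 42.2 and 23.6 CPM in Control. It overlapped between the groups and did not pass the test, with a log2 fold change of -0.56 (SE 0.22, adjusted p = 0.107 by edgeR). The Efna4 call was lost in 9 of 19 alternatives, among them the fits without Control replicates 1 or 2, Vehicle replicates 1 or 2, or UCS replicates 1 or 2, with adjusted p values up to 0.125.

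The 250 bases before the RefSeq starts of these 3 neighbours and of Ephb2, the receptor that rose with the smallest p, are shown. The 3 neighbours share a locus, and whether their fold changes differ from each other was not tested. All windows are on the minus strand of GRCm38.p6 and written 5′ to 3′. Capitals mark GC boxes, the letters GGGCGG or the same on the other strand, CCGCCC, which Sp and Klf factors can bind.
Efna3, chr3:89322940-89323189: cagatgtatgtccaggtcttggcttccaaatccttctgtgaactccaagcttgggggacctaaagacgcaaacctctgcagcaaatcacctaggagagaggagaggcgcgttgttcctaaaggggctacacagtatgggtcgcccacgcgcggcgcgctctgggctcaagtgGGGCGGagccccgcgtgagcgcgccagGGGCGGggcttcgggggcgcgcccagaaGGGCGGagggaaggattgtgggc
Efna4, chr3:89338029-89338278: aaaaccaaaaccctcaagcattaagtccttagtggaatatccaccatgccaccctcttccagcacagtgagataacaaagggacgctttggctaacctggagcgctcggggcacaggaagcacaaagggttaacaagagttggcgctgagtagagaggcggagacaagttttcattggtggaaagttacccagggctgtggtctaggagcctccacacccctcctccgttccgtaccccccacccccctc
Efna1, chr3:89280952-89281201: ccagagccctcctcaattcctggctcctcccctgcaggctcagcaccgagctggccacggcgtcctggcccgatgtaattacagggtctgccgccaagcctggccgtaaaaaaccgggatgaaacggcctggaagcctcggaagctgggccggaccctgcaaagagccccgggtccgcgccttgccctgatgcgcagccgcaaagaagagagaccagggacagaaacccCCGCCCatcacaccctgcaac
Ephb2, chr4:136836013-136836262: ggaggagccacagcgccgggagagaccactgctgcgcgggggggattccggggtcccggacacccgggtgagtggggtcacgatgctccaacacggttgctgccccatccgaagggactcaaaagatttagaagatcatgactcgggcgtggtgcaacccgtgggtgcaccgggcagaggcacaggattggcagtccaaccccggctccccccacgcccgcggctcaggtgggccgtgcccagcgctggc
The Efna3 window held 3 GC boxes, the Efna1 window 1, and the Efna4 and Ephb2 windows none. The table has a second window, not shown, for Efna3, with 3 GC boxes, and for Efna1, with 2. GGGCGG was found, on either strand, in 53 of 75 windows of the 59 members that had an entry (70.7%), in 52.6% of the 16163 windows of tested genes and in 32.7% of all 32851 windows. Of the 18 windows of called members, which belonged to 12 genes, 13 held it. An E-box (CACGTG) stood in 4 and the AP-1 letters TGANTCA in 3 of the 75 member windows, beside 7.6% and 5.13% of windows of tested genes. These are matches of letters and say nothing of binding.

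The other ephrins moved less. Efnb1, a transmembrane ephrin, had 42.2, 37.5 and 29.9 CPM in Vehicle, against 48.8, 48.0 and 48.9 CPM in Control; the groups did not overlap, yet the log2 fold change of -0.41 did not pass (SE 0.17, adjusted p = 0.125 by edgeR). Efnb2, the ephrin with the highest mean CPM and a ligand of EphB4 on vessels, had 78.4, 64.2 and 70.2 CPM in Vehicle, against 60.1, 66.8 and 60.4 CPM in Control. Its groups overlapped, with a log2 fold change of 0.18 (adjusted p = 0.306 by edgeR). Efna5 averaged 50.9 ± 8.45 CPM in Vehicle and 52.1 ± 7.92 CPM in Control (SD, n = 3 each).

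Among the Eph receptors, Ephb2, which binds B-class ephrins and mediates contact repulsion, rose. It had 38.1, 42.2 and 34.5 CPM in Vehicle replicates 1 to 3, against 19.0, 19.4 and 23.0 CPM in Control. All Vehicle libraries were above all Control libraries, at 1.87 times their level (log2 fold change 0.90 with SE 0.11, adjusted p = 0.000326 by edgeR), and the call held in all 19 alternatives. Epha3, a receptor for A-class ephrins, rose at a much lower level: 3.3, 4.1 and 5.62 CPM in Vehicle, against 2.06, 2.08 and 1.76 CPM in Control. The groups did not overlap, with a log2 fold change of 1.14 (SE 0.28, adjusted p = 0.0153 by edgeR). Its call was lost without Control replicate 3 (adjusted p = 0.0544) or Vehicle replicate 3 (0.0561).

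Epha7 was the nearest member that missed the test. It had 12.2, 13.8 and 14.5 CPM in Vehicle, against 6.39, 3.26 and 7.4 CPM in Control, groups that did not overlap, with a log2 fold change of 1.25 (SE 0.40, adjusted p = 0.0586 by edgeR). It was called with the retina signal as a covariate, with the 2 groups alone, with DESeq2 and without UCPRP replicate 1. The receptors with the highest mean CPM did not pass: Epha2, an epithelial receptor of ephrin-A1, averaged 169.4 ± 39.2 CPM in Vehicle and 144.5 ± 35.6 CPM in Control, and Ephb3 averaged 98.4 ± 16 CPM in Vehicle and 132.6 ± 27.3 CPM in Control (SD, n = 3 each). Epha4, which binds ephrins of both classes, averaged 96.2 ± 18.9 CPM in Vehicle and 76.5 ± 3.52 CPM in Control, with a log2 fold change of 0.33 (SE 0.13, adjusted p = 0.124 by edgeR).

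Of the semaphorins, Sema4b, Sema4a and Sema5a fell and Sema4c rose; all 4 are transmembrane ligands. Sema4b had 49.4, 42.3 and 35.1 CPM in Vehicle replicates 1 to 3, against 67.6, 67.0 and 58.4 CPM in Control. Each Vehicle library was below each Control library, and the fall of 0.61 on the log2 scale (SE 0.13, adjusted p = 0.0072 by edgeR) was called in all 19 alternatives. Sema5a, which carries thrombospondin repeats, had 35.5, 37.8 and 33.3 CPM in Vehicle, against 70.5, 47.4 and 72.6 CPM in Control. The groups were apart, with Control replicate 2 the closest to Vehicle (log2 fold change -0.84 with SE 0.21, adjusted p = 0.017 by edgeR). Sema4a, known for roles in immune cells and the retina, had 68.5, 59.5 and 60.3 CPM in Vehicle, against 84.2, 94.4 and 82.4 CPM in Control, again without overlap (log2 fold change -0.47 with SE 0.12, adjusted p = 0.0193 by edgeR).

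The Sema5a call was lost without Control replicates 1 or 3 or Vehicle replicates 1 or 3 (adjusted p up to 0.0589), and that of Sema4a without Control replicate 2 or Vehicle replicates 2 or 3 (up to 0.0808). Sema4c, a ligand of plexin-B2, had 32.6, 25.4 and 21.6 CPM in Vehicle, against 21.1, 17.6 and 18.6 CPM in Control. The groups lay next to each other, with a log2 fold change of 0.47 (SE 0.14, adjusted p = 0.0448 by edgeR). The call was lost in 14 of 19 alternatives, among them the fits without any 1 library other than Vehicle replicate 3; without Vehicle replicate 1 the log2 fold change was 0.30 (adjusted p = 0.165). The semaphorins with the highest mean CPM did not pass: Sema3f averaged 156.2 ± 5.71 CPM in Vehicle and 168.7 ± 16.8 CPM in Control, and Sema4d averaged 81.4 ± 11.2 CPM in Vehicle and 84.3 ± 9.87 CPM in Control (SD, n = 3 each).

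Receptors of the semaphorins changed upward where they passed the test. Plxnd1, a vascular plexin that binds Sema3e, had 39.1, 31.9 and 33.9 CPM in Vehicle replicates 1 to 3, against 19.9, 20.9 and 23.1 CPM in Control. The groups were well apart, with a log2 fold change of 0.72 (SE 0.14, adjusted p = 0.00398 by edgeR). Nrp2, the co-receptor of Sema3f and of the lymphatic growth factor VEGF-C, had 89.4, 67.2 and 75.9 CPM in Vehicle, against 54.9, 55.6 and 53.5 CPM in Control, where the 3 libraries were nearly equal. Its log2 fold change was 0.50 (SE 0.11, adjusted p = 0.00977 by edgeR), and both calls held in all 19 alternatives.

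Plxna1, the receptor that pairs with neuropilin-1 for class 3 semaphorins, had 113.3, 97.7 and 93.1 CPM in Vehicle, against 74.3, 60.1 and 77.1 CPM in Control. The groups did not overlap (log2 fold change 0.52 with SE 0.14, adjusted p = 0.022 by edgeR), and the call was lost without Control replicate 2 (adjusted p = 0.0731) or Vehicle replicate 1 (0.0848). Nrp1 averaged 69.5 ± 13.7 CPM in Vehicle and 54.8 ± 1.54 CPM in Control (SD, n = 3 each), a log2 fold change of 0.34 that did not pass (adjusted p = 0.228 by edgeR). Plxnc1, the receptor of Sema7a, averaged 29.7 ± 5.89 CPM in Vehicle and 21.3 ± 1.73 CPM in Control and missed the test as well (log2 fold change 0.47 with SE 0.16, adjusted p = 0.0746 by edgeR). The abundant Plxnb2 averaged 555.5 ± 84.8 CPM in Vehicle and 623.7 ± 29.8 CPM in Control, and Plxnb1 averaged 231.8 ± 12 CPM in Vehicle and 255.3 ± 35.1 CPM in Control; neither was called.

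In the Slit and Robo system, Robo1, the broadly expressed Slit receptor, had 60, 40 and 48.6 CPM in Vehicle replicates 1 to 3, against 37.2, 33.3 and 31.6 CPM in Control. It passed narrowly with groups that did not overlap (log2 fold change 0.54 with SE 0.17, adjusted p = 0.0478 by edgeR), and 13 of 19 alternatives lost the call. It held only without Vehicle replicate 2 or UCPRP replicates 2 or 3 among the 12 fits that left out a library. Without Vehicle replicate 1 the log2 fold change was 0.38 (adjusted p = 0.178). Its ligand Slit2 had 71.5, 76.7 and 82.6 CPM in Vehicle, against 78.7, 71.2 and 76.9 CPM in Control. The groups overlapped, and the log2 fold change was 0.03 (adjusted p = 0.901 by edgeR). Slit3 averaged 14.5 ± 2.52 CPM in Vehicle and 16 ± 2.48 CPM in Control, and Robo2, a receptor of sensory axons, averaged 28.8 ± 5.26 CPM in Vehicle and 25.1 ± 3.57 CPM in Control; neither passed. Robo4, the endothelial member, averaged 6.8 ± 0.84 CPM in Vehicle and 4.52 ± 0.985 CPM in Control (SD, n = 3 each) and did not pass (log2 fold change 0.59 with SE 0.21, adjusted p = 0.0885 by edgeR).

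In the netrin system, Unc5a, a repulsive netrin receptor that also acts as a dependence receptor, fell. It had 28.7, 33.7 and 41.3 CPM in Vehicle replicates 1 to 3, against 73.7, 76.9 and 58.4 CPM in Control replicates 1 to 3. Each Vehicle library was below each Control library, at a mean of 0.496 of the Control level (log2 fold change -1.01 with SE 0.16, adjusted p = 0.00163 by edgeR), and all 19 alternatives kept the call. Unc5a overlaps the gene Hk3, which averaged 4.54 CPM, and the sources do not say whether counting used strand. The ligands Ntn1 and Ntn4 averaged 10.1 ± 2.47 and 39.3 ± 7.15 CPM in Vehicle, and 15.7 ± 2.77 and 53.9 ± 8.05 CPM in Control (SD, n = 3 each). Neither passed, with log2 fold changes of -0.64 (SE 0.24, adjusted p = 0.102 by edgeR) and -0.46 (SE 0.17, adjusted p = 0.0988 by edgeR). Unc5b averaged 25 ± 4.83 CPM in Vehicle and 20.8 ± 3.89 CPM in Control, and Unc5c averaged 23.5 ± 1.31 CPM in Vehicle and 25 ± 3.37 CPM in Control.

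**Figure D3:**
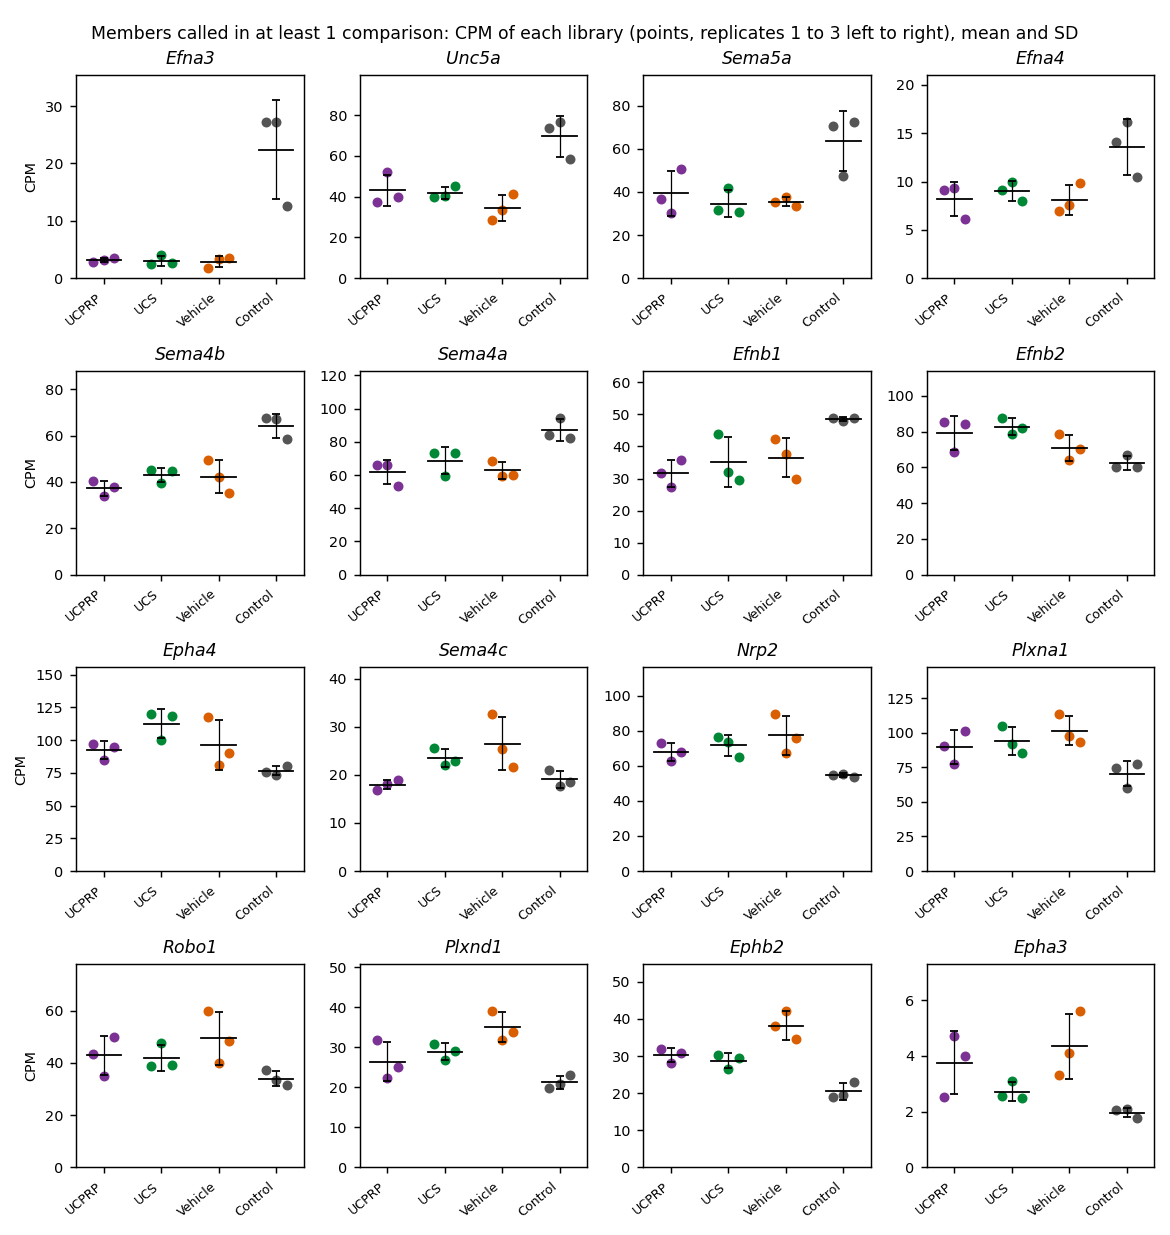
CPM (vertical axes from 0, a separate scale per gene) of the 16 members called in at least 1 comparison, in UCPRP, UCS, Vehicle and Control libraries; points are replicates 1 to 3 from left to right, lines are means and bars are SDs. Efna3 stays at or under 4.07 CPM in every injured library, while the Ephb2 libraries of UCPRP and UCS (26.5 to 31.8 CPM) lie between those of Vehicle and those of Control.

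The make-up of the tissue differed between the same groups. The 8 markers of corneal epithelium summed to 7866.5 to 9973.6 CPM in Vehicle, against 40031.5 to 83648.1 CPM in Control, with 7 lower in Vehicle. The 8 markers of conjunctiva and goblet cells summed to 13059.7 to 18926.2 CPM in Vehicle, against 2681.3 to 6216.1 CPM in Control, with all 8 higher. Muc5ac, which defines goblet cells, was between 457.1 and 654.9 CPM in Vehicle, against 0.412 to 2.33 CPM in Control. For the members that fell (Efna3, Efna4, Unc5a, Sema4a, Sema4b and Sema5a), the part of this epithelial change was not tested.

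Markers of vessel and immune cells also differed. The 10 markers of vascular endothelium summed to 191.0 to 204.7 CPM in Vehicle, against 116.3 to 180.9 CPM in Control, with 4 higher, and 1 of 4 markers of lymphatic endothelium was higher (242.0 to 319.1 CPM summed in Vehicle, 218.8 to 233.6 CPM in Control). All 10 macrophage markers were higher, at 793.4 to 993.2 CPM summed in Vehicle, against 198.7 to 280.1 CPM in Control. Of the 8 neutrophil markers, 6 were tested and 5 were higher. The 8 summed to 430.8, 431.1 and 81.5 CPM in Vehicle replicates 1 to 3, against 10.9 to 17.7 CPM in Control. Mmp8, Retnlg and Mpo were at 0 in some libraries. The part of these cells in the higher levels of Plxnd1, Nrp2, Plxna1, Ephb2, Epha3, Sema4c and Robo1 was not tested. None of 9 Schwann cell markers was called (394.0 to 491.7 CPM summed in Vehicle, 464.1 to 565.8 CPM in Control). Of 10 sensory neuron markers 6 were tested and 1 was higher (32.6 to 90.5 CPM summed in Vehicle, 23.6 to 62.8 CPM in Control). The defining genes Calca, Trpm8 and Scn10a were at 0 in some libraries. This sum was lowest in UCPRP replicate 1, UCS replicate 1, Vehicle replicate 1 and Control replicate 2, which also had the lowest retina signal. It was highest in UCPRP replicate 3 (126.7 CPM), as was the retina signal. The part of retina in this sum was not tested. Of 8 markers of keratocytes and stroma 3 were higher and 2 lower (5956.0 to 9666.5 CPM summed in Vehicle, 5696.4 to 7368.6 CPM in Control), and their part in the results was not tested.

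UCS and UCPRP were each compared with Vehicle to ask whether treatment altered the injured cornea. No member was called in either comparison, and neither was any of the 16124 genes (0.0%). For UCS against Vehicle, 4 members had an unadjusted p under 0.05, as did 782 of all genes; DESeq2 called 0 members and 14 genes. For UCPRP against Vehicle the counts were 4 members and 1572 genes, and DESeq2 called 0 members and 131 genes. Log2 fold changes of the members ran from -0.74 to 0.42 for UCS and from -0.56 to 0.57 for UCPRP. The comparisons share the 3 Vehicle libraries with each other and with Vehicle against Control. Ephb2, Sema4c, Plxnd1 and Epha3, described next, were called higher in these same Vehicle libraries against Control. Their lower values against Vehicle are therefore not independent of that call.

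Ephb2 had the smallest p of the members in UCS against Vehicle and the next smallest in UCPRP against Vehicle. It had 31.8, 28.1 and 30.7 CPM in UCPRP and 30.4, 26.5 and 29.5 CPM in UCS, against 38.1, 42.2 and 34.5 CPM in Vehicle. All 6 treated libraries were below the 3 Vehicle libraries and above the 3 Control libraries (19.0 to 23.0 CPM). The log2 fold change against Vehicle was -0.34 for UCPRP (SE 0.11, unadjusted p = 0.0101, adjusted p = 0.369 by edgeR) and -0.41 for UCS (SE 0.11, unadjusted p = 0.00325, adjusted p = 0.894 by edgeR). At 2 SE these differences ran from -0.56 to -0.12 and from -0.63 to -0.19. Over the 19 alternatives the adjusted p stayed at 0.129 or above for UCPRP and at 0.182 or above for UCS.

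Sema4c had the smallest p in UCPRP against Vehicle. It had 16.9, 18.2 and 18.9 CPM in UCPRP, against 32.6, 25.4 and 21.6 CPM in Vehicle, so the groups did not overlap and UCPRP libraries lay at the level of Control (17.6 to 21.1 CPM). The log2 fold change was -0.56 (SE 0.14, unadjusted p = 0.00234, adjusted p = 0.331 by edgeR). Without Vehicle replicate 3, Sema4c was called (adjusted p = 0.0411), where 195 genes of all those tested were called. In that fit the Vehicle libraries left, replicates 1 and 2, were of the low circadian phase. All 3 UCPRP libraries were of the high phase, so treatment and phase cannot be told apart there. The adjusted p of Sema4c ran from 0.0411 to 1.0 over the alternatives. Plxnd1 had 31.8, 22.3 and 25.1 CPM in UCPRP, against 39.1, 31.9 and 33.9 CPM in Vehicle, groups that touched without overlap (log2 fold change -0.40 with SE 0.13, adjusted p = 0.381 by edgeR). The macrophage markers summed to 647.4 to 670.4 CPM in UCPRP and 559.3 to 927.3 CPM in UCS, against 793.4 to 993.2 CPM in Vehicle. The neutrophil markers summed to 40.1 to 84 CPM in UCPRP and 27.4 to 129.9 CPM in UCS, against 81.5 to 431.1 CPM in Vehicle. The part of either cell type in the Ephb2 and Sema4c values was not tested. The vascular endothelial markers summed to 152.5 to 160.0 CPM in UCPRP, against 191.0 to 204.7 CPM in Vehicle; their part in the Plxnd1 values was not tested. Epha3, next after Ephb2 for UCS, had 2.55, 3.11 and 2.5 CPM in UCS, against 3.3, 4.1 and 5.62 CPM in Vehicle (log2 fold change -0.67 with SE 0.27, adjusted p = 1.0 by edgeR).

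UCPRP was compared with UCS to ask whether the preparations differ. No member and none of all genes was called (0.0%); 2 members and 393 genes had an unadjusted p under 0.05, and DESeq2 called 0 of either. The 2 members were Sema4c and Sema4d, the ligand of plexin-B1. Sema4d had 67.6, 61.4 and 65.6 CPM in UCPRP, against 93.8, 70.2 and 84.6 CPM in UCS, without overlap (log2 fold change -0.35 with SE 0.13, adjusted p = 0.985 by edgeR). Sema4c had 16.9, 18.2 and 18.9 CPM in UCPRP, against 25.7, 22.1 and 22.8 CPM in UCS (log2 fold change -0.39 with SE 0.14, adjusted p = 0.985 by edgeR). At 2 SE the differences ran from -0.62 to -0.08 for Sema4d and from -0.68 to -0.10 for Sema4c.

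Set against Control, the treated injured corneas carried part of the same calls. In UCPRP against Control, 6 of 68 members passed (8.82%, beside 10.4% of all genes), 1 higher and 5 lower (5.3% and 5.07% of all genes), with a median log2 fold change of 0.16, against 0.039 for all genes. In UCS against Control, 8 passed (11.8%, beside 10.9% of all genes), 4 higher and 4 lower (6.4% and 4.47% of all genes), with a median of 0.06, against -0.013 for all genes. The comparisons share the 3 Control libraries with each other and with the Vehicle comparison. Efna3, Ephb2, Sema4b and Unc5a were called in all 3 injured groups.

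Efna3 was as low with treatment as without: 2.83, 3.13 and 3.55 CPM in UCPRP and 2.44, 4.07 and 2.71 CPM in UCS, against 27.3, 27.3 and 12.5 CPM in Control. No injured library reached the lowest Control library. Its log2 fold changes were -2.82 in UCPRP (SE 0.35, adjusted p = 0.000632 by edgeR) and -2.86 in UCS (SE 0.35, adjusted p = 0.000482 by edgeR). Unc5a had 37.5, 52.0 and 39.8 CPM in UCPRP and 40, 40.4 and 45.3 CPM in UCS, all below the 58.4 to 76.9 CPM of Control. Its log2 fold changes were -0.69 in UCPRP (adjusted p = 0.021 by edgeR) and -0.73 in UCS (adjusted p = 0.0143 by edgeR).

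Sema4b averaged 37.2 ± 3.18 CPM in UCPRP, 43.1 ± 3.12 CPM in UCS and 64.3 ± 5.15 CPM in Control (SD, n = 3 each), with log2 fold changes of -0.79 in UCPRP (adjusted p = 0.00269 by edgeR) and -0.58 in UCS (adjusted p = 0.0131 by edgeR). Ephb2 was higher than Control by 0.56 in UCPRP (SE 0.11, adjusted p = 0.00815 by edgeR) and by 0.49 in UCS (SE 0.11, adjusted p = 0.0147 by edgeR) on the log2 scale. Calls that held in all 19 alternatives were Efna3, Sema4b and Ephb2 for UCPRP and Efna3 alone for UCS. Without Control replicate 1, Efna3 was the only member called in UCS against Control. In that comparison Sema4b was also lost without UCS replicate 2 (adjusted p = 0.0642), Ephb2 without UCS replicates 1 or 3 or with the 2 groups alone (up to 0.0641), and Unc5a without Control replicate 2 or UCS replicates 1 or 2 (up to 0.0586). In UCPRP against Control, Unc5a was lost without Control replicates 1 or 2 or UCPRP replicates 1 or 3, or with the 2 groups alone (up to 0.0846).

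In the main fit the remaining calls belonged to 1 treated group, and they were not shown to differ between the groups. With the retina signal as a covariate, Efnb2, Nrp2 and Sema5a were also called in UCPRP against Control, and Sema4a in UCS against Control. DESeq2 also called Efnb2 and Sema5a in UCPRP against Control. With phase as a term, Efnb1 was also called in UCS against Control. Epha4 was not added for UCPRP in any of these fits. In UCPRP, Efnb1 averaged 31.6 ± 4.21 CPM, against 48.6 ± 0.519 CPM in Control (log2 fold change -0.62 with SE 0.17, adjusted p = 0.0362 by edgeR), a call lost when any 1 Control or UCPRP library was left out (adjusted p up to 0.137). Sema4a averaged 61.8 ± 7.32 CPM in UCPRP and 87.0 ± 6.48 CPM in Control (log2 fold change -0.49, adjusted p = 0.023 by edgeR). Its call was lost without Control replicate 2 or UCPRP replicate 3 and with the 2 groups alone (up to 0.0922). It was also lost within the high circadian phase. In UCS, Epha4 had 119.6, 100 and 118.1 CPM, against 75.9, 73.3 and 80.3 CPM in Control (log2 fold change 0.56 with SE 0.13, adjusted p = 0.020 by edgeR). The groups were far apart, but the call was lost without Control replicates 1 or 2 or UCS replicates 1 or 3 (up to 0.0776).

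Efnb2 had 87.6, 78.6 and 82.2 CPM in UCS, against 60.1, 66.8 and 60.4 CPM in Control (log2 fold change 0.41 with SE 0.11, adjusted p = 0.0337 by edgeR). The groups did not overlap, and the call was lost without Control replicates 1 or 3 or any UCS library (adjusted p up to 0.112). Sema5a averaged 34.6 ± 6.07 CPM in UCS and 63.5 ± 14.0 CPM in Control (log2 fold change -0.88, adjusted p = 0.0192 by edgeR), lost without Control replicates 1 or 3 or UCS replicates 1 or 3 (up to 0.0835). Nrp2 averaged 71.8 ± 6.08 CPM in UCS and 54.6 ± 1.06 CPM in Control (log2 fold change 0.39, adjusted p = 0.0457 by edgeR), a call lost in 13 of 19 alternatives, among them the fits without any 1 library other than Vehicle replicates 1 or 2 (up to 0.143). Just outside the threshold were Efna4 and Epha3 in UCPRP (log2 fold changes -0.73 and 0.93, adjusted p = 0.0557 and 0.0563 by edgeR) and Plxnd1 and Plxna1 in UCS (0.44 and 0.41, adjusted p = 0.0635 and 0.081 by edgeR).

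**Figure D4:**
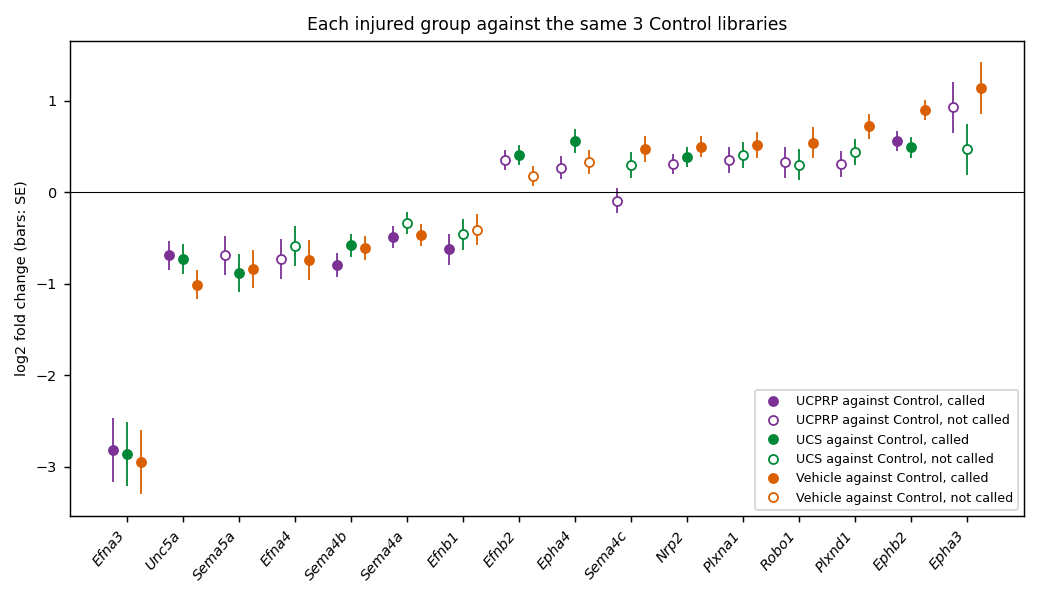
Log2 fold change against Control (vertical axis, bars are standard errors) of the 16 members called in at least 1 comparison, for UCPRP, UCS and Vehicle; filled points are called and open points are not, and all 3 comparisons use the same 3 Control libraries. Efna3 lies between -2.95 and -2.82 in all 3, and Ephb2 is 0.56 in UCPRP, 0.49 in UCS and 0.90 in Vehicle.

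Several members known from the nervous system varied with the retina signal of the libraries. A slope on the log2 of the summed retina markers, fitted with the group terms and chosen after seeing the data, was called for 21 of 68 members (30.9%), 15 rising and 6 falling, beside 17.9% of all genes (12.1% rising and 5.84% falling). Epha8 had 2.67, 12.7 and 9.92 CPM in UCPRP, 2.6, 5.62 and 8.89 CPM in UCS, 2.74, 11.4 and 8.07 CPM in Vehicle and 8.03, 2.43 and 6.78 CPM in Control. Its low libraries were UCPRP replicate 1, UCS replicate 1, Vehicle replicate 1 and Control replicate 2, the 4 with the lowest retina signal. Its level rose by 1.14 on the log2 scale per doubling of the retina signal (SE 0.13, adjusted p = 7.36e-05 by edgeR).

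Dcc, the attractive netrin receptor, had 1.17, 4.21 and 4.22 CPM in UCPRP, 1.49, 2.36 and 4.03 CPM in UCS, 1.5, 3.81 and 2.91 CPM in Vehicle and 3.66, 0.474 and 2.59 CPM in Control. The same 4 libraries were lowest, with a slope of 1.03 (SE 0.18, adjusted p = 0.00188 by edgeR). Slopes that stayed called in all 12 fits that left out a library were those of Unc5d (1.25), Epha8, Dcc, Epha10 (0.79), Slit1 (0.78), Ephb1 (0.68), Sema4g (0.66), Sema7a (0.37) and Efnb3 (0.34), rising, and of Ephb3 (-0.25), falling. The number of members called in those fits ran from 11 to 22. Of the 13 members called in Vehicle against Control, Nrp2 was the only one with a called slope (-0.13, adjusted p = 0.0461 by edgeR). With the retina signal as a covariate all 13 kept their call, and Epha7, Ephb3, Ntn1, Plxnc1, Sema6b and Sema7a were added; the share of all genes called was then 22%, against 16.5% without it.

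**Figure D5:**
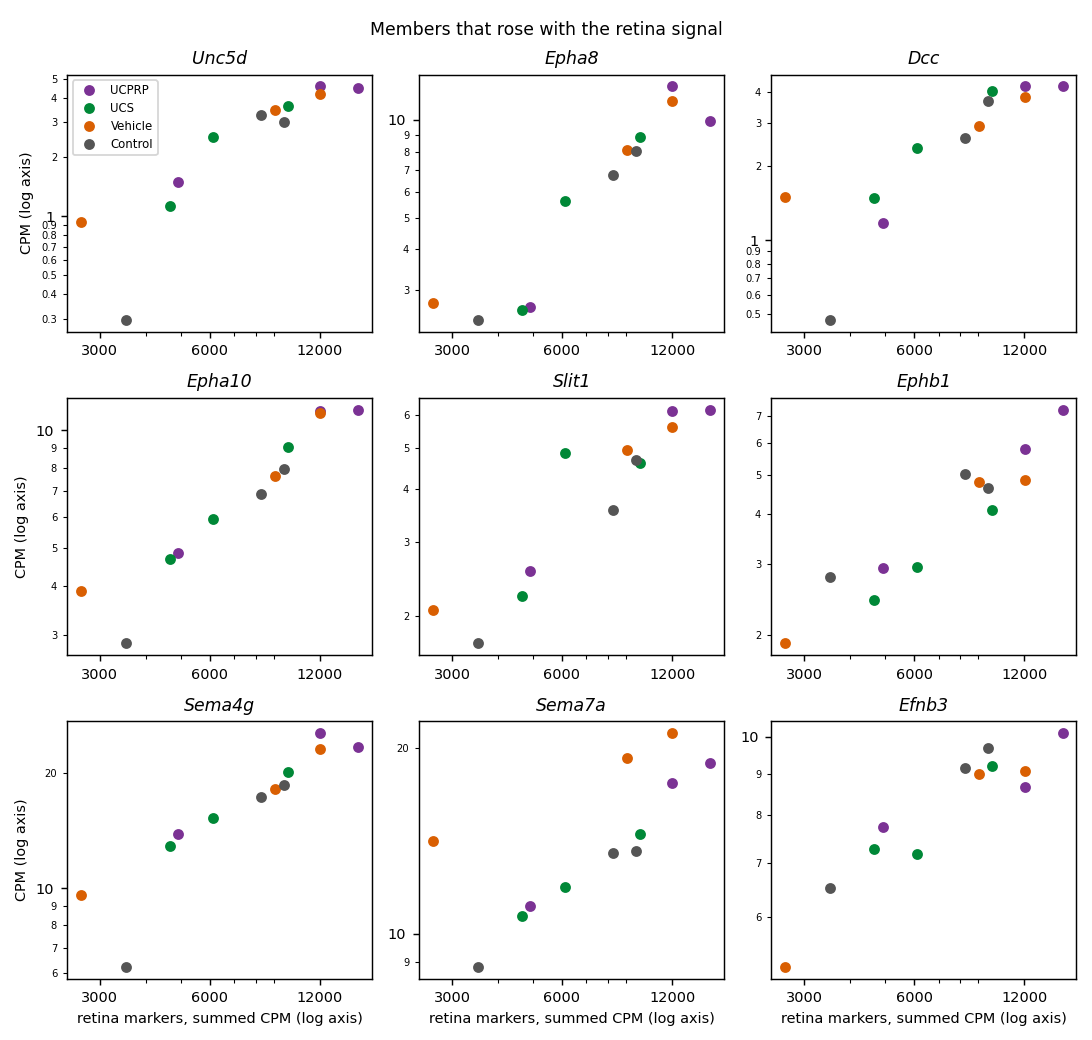
CPM of 9 members (vertical log axes) against the summed CPM of the retina markers (horizontal log axes) in the 12 libraries, coloured by group (UCPRP, UCS, Vehicle, Control). The genes are those whose rising slope stayed called in all 12 fits without a library, and Unc5d is steepest at 1.25 per doubling. For Sema7a, Vehicle replicate 1 had the lowest retina signal yet 14.1 CPM, above Control replicate 1 at 13.6 CPM. Whether the slopes differ between groups was not tested.

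The circadian phase of the libraries was unevenly spread, with Vehicle replicates 1 and 2 but only Control replicate 3 in the low phase. With phase as a term, 11 members were called in Vehicle against Control; Efna4 (adjusted p = 0.0672 by edgeR), Robo1 (0.0624) and Sema4c (0.101) were lost and Efnb1 was gained. Within the high phase (1 Vehicle and 2 Control libraries) the 3 members Efna3, Ephb2 and Sema4b were called, 1 higher and 2 lower, beside 3.5% of genes, and within the low phase (2 Vehicle and 1 Control libraries) 0, beside 0.948% of genes; these splits were added after seeing the data. Each leaves 1 arm with a single library, which is assumed to vary like the replicated groups of the same fit, so these counts bear little weight.

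Around these receptors, a list of 110 other genes of the guidance pathways was examined, of which 109 were in the table and tested. In Vehicle against Control 12 were higher and 13 lower (22.9%, beside 16.5% of all genes), with a median log2 fold change of 0.04. Among co-receptors and other cues 4 of 23 rose and 4 fell; in semaphorin and plexin signalling 2 of 23 rose and 1 fell; in Eph and ephrin signalling 2 of 14 rose and 2 fell. In Slit and Robo signalling 1 of 14 rose and none fell, and in netrin signalling 1 of 15 rose and 3 fell.

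Ngef, an exchange factor that EphA receptors bind, fell with Efna3. It had 4.28, 6.54 and 5.97 CPM in Vehicle, against 29.1, 38.9 and 17.9 CPM in Control, without overlap (log2 fold change -2.35 with SE 0.26, adjusted p = 0.00021 by edgeR). Fes, a tyrosine kinase that acts below plexin-A1, had 35.7, 31.8 and 24.9 CPM in Vehicle, against 5.2, 6.58 and 7.87 CPM in Control (log2 fold change 2.23 with SE 0.19, adjusted p = 7.82e-05 by edgeR). Rac2, the Rac of blood cells, averaged 30.5 ± 11.7 CPM in Vehicle and 6.35 ± 0.459 CPM in Control (log2 fold change 2.26, adjusted p = 0.00131 by edgeR). Fes is also known from myeloid cells, and the rise of the macrophage markers given above accompanied both genes; its part was not tested.

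Named here are the 6 genes with the smallest p in each direction. Beside Ngef, those that fell were the kinases Rock2 (log2 fold change -0.72) and Pak1 (-0.82), the adhesion molecule Chl1 (-1.36), a partner of neuropilin-1, the heparan sulfate proteoglycan Sdc1 (-0.89) and Siah1a (-0.51), a ubiquitin ligase that targets Dcc. Chl1 averaged 40.8 ± 14.7 CPM in Vehicle and 104.5 ± 5.63 CPM in Control (SD, n = 3 each; adjusted p = 0.00122 by edgeR). Beside Fes and Rac2, those that rose were the actin-severing protein Cfl1 (1.11), the actin-binding Ablim3 (1.12), the receptor-like Ptk7 (0.58) and Flrt2 (1.09), a ligand of Unc5 receptors. Flrt2 averaged 93.2 ± 16.6 CPM in Vehicle and 43.9 ± 11.9 CPM in Control (adjusted p = 0.00292 by edgeR). In UCPRP and UCS against Vehicle, and in UCPRP against UCS, none of the 109 was called (0.0% of all genes), while 18.3% passed in UCPRP against Control, beside 10.4% of all genes, and 16.5% in UCS against Control, beside 10.9%.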

How the data were processed

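Per the labels' protocols, the RNeasy kit was used for extraction and TruSeq Stranded Total RNA for the libraries. The submitters' processing notes name HISAT and GRCm38; the sources used here do not give the counter, the annotation or any use of strand. The authors deposited estimated counts per gene and library, of which 64.9% were whole numbers (tolerance 0).

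Counts were rounded to whole numbers, filtered with filterByExpr (minimum count 10, 16124 genes left), scaled by TMM (factors 0.825 to 1.067) and tested with edgeR 4.0.16 in R 4.3.3 (robust quasi-likelihood F test, 4 group terms, all 12 libraries). Adjusted p values are Benjamini-Hochberg over all genes tested, and members were called under 0.05. The SE was taken as the size of the log2 fold change over √F. CPM uses TMM-scaled totals; CPM per kb divides it by the GENCODE exon length in GRCm38. The common biological coefficient of variation was 0.227. Floors and depth cover counting error only. Whether pools were handled separately is not stated, so p values measure only the spread between these pools, which may be technical.

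All 69 members matched RefSeq GRCm38.p6, which gave coordinates and promoter windows. Members and lists were chosen with earlier results of these data known. Genes named are those called in any of the 6 comparisons, the 2 highest members per family, the 2 nearest uncalled members per comparison, and up to 6 called pathway genes each way in Vehicle against Control; Efna1, Robo4 and genes named for an extreme level or a retina slope were chosen after their values were seen. Alternatives were RLE scaling, no filter, DESeq2 1.42.0, 2 groups alone, the replicate number, circadian phase, the retina signal and leaving out each library. The scripts were tested on simulated data. The count of 1 sublist of the pathway genes is not reported here.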

Additional observations from a re-analysis of the deposited data

How the results depend on the processing

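In Vehicle against Control the 13 calls became 13 with RLE scaling, 14 with DESeq2 (17.8% of all genes, against 16.5%), 11 without the filter, with the 2 groups alone or with the phase term, 19 with the retina covariate (22%), 3 in the high circadian phase (3.5%) and 0 in the low phase (0.948%), and 8 (without Control replicate 2 or Vehicle replicate 1) to 12 when a library was left out (11.9% to 15.6%). Each phase split leaves 1 arm of this comparison with a single library, assumed to vary like the replicated groups. UCS against Control had 8 calls (10.9% of all genes), with 4 in the high phase (6.25%), 0 in the low phase (0.0%; 1 library in each arm), and 1 to 9 with a library left out (6.69% to 11%). UCPRP against Control had 6 (10.4%), with 10 under the retina covariate (12.3%), 11 with DESeq2 (13%), and 4 to 8 with a library left out (6.13% to 10.5%); the low phase holds no UCPRP library. UCPRP against Vehicle had 0, and 0 to 1 with a library left out; UCS against Vehicle and UCPRP against UCS had 0 throughout. For UCS against Control, the retina covariate added Epha7, Ntn1, Plxnd1 and Sema4a, and DESeq2 added Plxna1 and Plxnd1. The phase term added Efnb1 and lost Nrp2, and the high phase added Efnb1 and lost Efnb2, Epha4, Ephb2, Nrp2 and Sema5a. For UCPRP against Control, the retina covariate added Efnb2, Nrp2, Ntn1 and Sema5a, the phase term added Efna4, and the high phase lost Sema4a. There DESeq2 added Efna4, Efnb2, Epha3, Ntn1 and Sema5a. The causes of these changes were not tested, except that a left-out library leaves fewer samples. Ntn5, as low as 0.154 CPM and so near the level of 3 counts, was too low to test with the filter.

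Replicate numbers do not pair the samples: deviations from the group means correlated at a median of -0.09 between same-numbered libraries (-0.637 to 0.559, 18 pairs) and 0.062 between others (36 pairs). With the replicate number as a block, 12 members were called in Vehicle against Control (Efna4 and Robo1 lost, Efna1 gained), 8 in UCS against Control, 7 in UCPRP against Control (Ntn1 gained) and 0 in the other comparisons.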

Other observations

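Within 100 kb on either side of the ephrin-A cluster on chromosome 3 there were 22 other genes of the count table, of which 21 were tested; in Vehicle against Control 2 were higher and 1 lower (14.3%, beside 16.5% of all genes). Adam15, next to Efna4 on that side, averaged 96.9 ± 9.63 CPM in Vehicle and 127.1 ± 12.8 CPM in Control (SD, n = 3 each; log2 fold change -0.39, adjusted p = 0.0433 by edgeR). Slc50a1, next to Efna1, averaged 36.9 ± 1.4 CPM in Vehicle and 38.5 ± 4.22 CPM in Control (log2 fold change -0.06, adjusted p = 0.81 by edgeR). Muc1, a membrane mucin, averaged 229.9 ± 27.7 CPM in Vehicle and 68.5 ± 25.9 CPM in Control (log2 fold change 1.75, adjusted p = 0.00085 by edgeR), and Thbs3 averaged 12.8 ± 0.842 CPM in Vehicle and 6.39 ± 1.24 CPM in Control (adjusted p = 0.00127 by edgeR).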
